A study of Homo sapiens with 6 samples.

Results

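The ubiquitin-specific proteases (USPs) were examined in H9 cells, a human T-cell lymphoma line, upon treatment with AZD4573, a selective inhibitor of CDK9. Members were the genes of the deposited count table whose symbol is USP followed by a number and at most 1 letter, Y-linked genes left out, which gave 51 of 61541 genes. Of these, 47 had enough counts to be tested, among 17678 genes tested in all. The USP17-like multicopy genes, the USP pseudogenes and the USP-fold proteins with other names (CYLD, PAN2 and USPL1) are outside this definition.

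Bulk RNA sequencing covered 3 libraries of H9 cells treated with the vehicle DMSO and 3 treated with AZD4573. Both groups were of the same line and labelled as wild type, without any engineered allele. The titles give an exposure of 4 h, and the legends of the study give 50 nM, whereas its discussion gives a longer exposure. H9 is 1 cell line, nothing states that the libraries came from separate cultures, and p-values therefore measure only the spread between these libraries, which may be technical.

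Ubiquitin is a small protein that is attached to other proteins by ligases and marks them for degradation, trafficking or signalling. Deubiquitinases remove it, and the USPs are their largest family in human cells, each with a cysteine protease domain and most with further domains that choose the substrate. CDK9 is the kinase of P-TEFb, which releases paused RNA polymerase II into elongation, so that transcripts with a short life are the first to be lost when it is inhibited.

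Expected counts per gene were analysed, and levels are given as CPM, counts per 1000000 counts of a library, whose total was adjusted by a TMM composition factor. A change is a log2 fold change, AZD4573 relative to DMSO, so that -1 is a halved level, and it is given with its standard error (SE). This SE was derived from the test named below, as the size of the change divided by the square root of the test's F statistic. A gene is said to have fallen or risen where the p from edgeR's quasi-likelihood test (edgeR QL), Benjamini-Hochberg adjusted (BH) over all genes tested, was under 0.05 and the fold change was at least 1.5. Bulk RNA cannot tell fewer cells from less RNA per cell.

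Totals ranged from 70367303 to 76571157 counts with DMSO and from 52101868 to 63795185 with AZD4573, so that 3 counts, the limit that a count of 0 allows, correspond to 0.0382 to 0.059 CPM, for counting error only. Of 11 T-cell markers, 10 reached 1 CPM in every library, the exception being CD2, and their summed level was 1440 to 1510 CPM with DMSO and 1970 to 2000 CPM with AZD4573. Of 5 myeloid markers none reached 1 CPM, and CD8B was at 0. The B-cell markers CD79A and CD79B and the epithelial markers CDH1 and EPCAM were above 1 CPM in all libraries, with sums over the B-cell list of 61.0 to 67.0 CPM against 92.5 to 103 CPM and over the epithelial list of 154 to 173 CPM against 137 to 142 CPM, and their part in the results was not tested. Transcripts of the 13 mitochondrial protein genes took 3.036% to 3.221% of counts with DMSO and 4.67% to 4.979% with AZD4573. Scaled to these transcripts, the median log2 fold change of all genes tested moved from 0.03 to -0.71, and all changes below are relative to TMM scaling unless this scaling is named.

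More USP genes fell than rose upon AZD4573 treatment. In all, 15 of 47 USP genes fell (31.9%, beside 23.7% of all genes tested), whereas only USP6 rose (2.13%, beside 22.7%). All genes tested include non-coding ones. Of the 13091 protein-coding genes with more than 1 exon, 26.8% fell and 18.2% rose. A further 14 were lower and 6 higher with an adjusted p under 0.05 but a change of less than 1.5-fold, and 11 did not pass the adjusted threshold. With the adjusted p alone, 29 were lower (background 37.4%) and 7 higher (background 37.3%). The 3 AZD4573 libraries all lay below the 3 DMSO libraries for 33 genes (38.7% of all genes tested) and all above them for 8 (39.0%), and the groups overlapped for 6.

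The median change over the 47 genes was -0.28, beside 0.03 over all genes tested, and 39 of the 47 were below that overall median. Over the 13423 protein-coding genes tested the median was -0.07, which is nearer to that of the USP genes. Under mitochondrial scaling the USP median was -1.01, beside -0.71 over all genes tested. A change of scaling moves all genes by about the same amount, so that this gap of 0.3 is not a second result. With mitochondrial scaling 40 of 47 USP genes fell, where 53.4% of all genes did, and USP6 was the only one to rise, where 10.0% of all genes did. The range among members ran from -2.78 for USP27X to 2.47 for USP6.

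**Figure D1:**
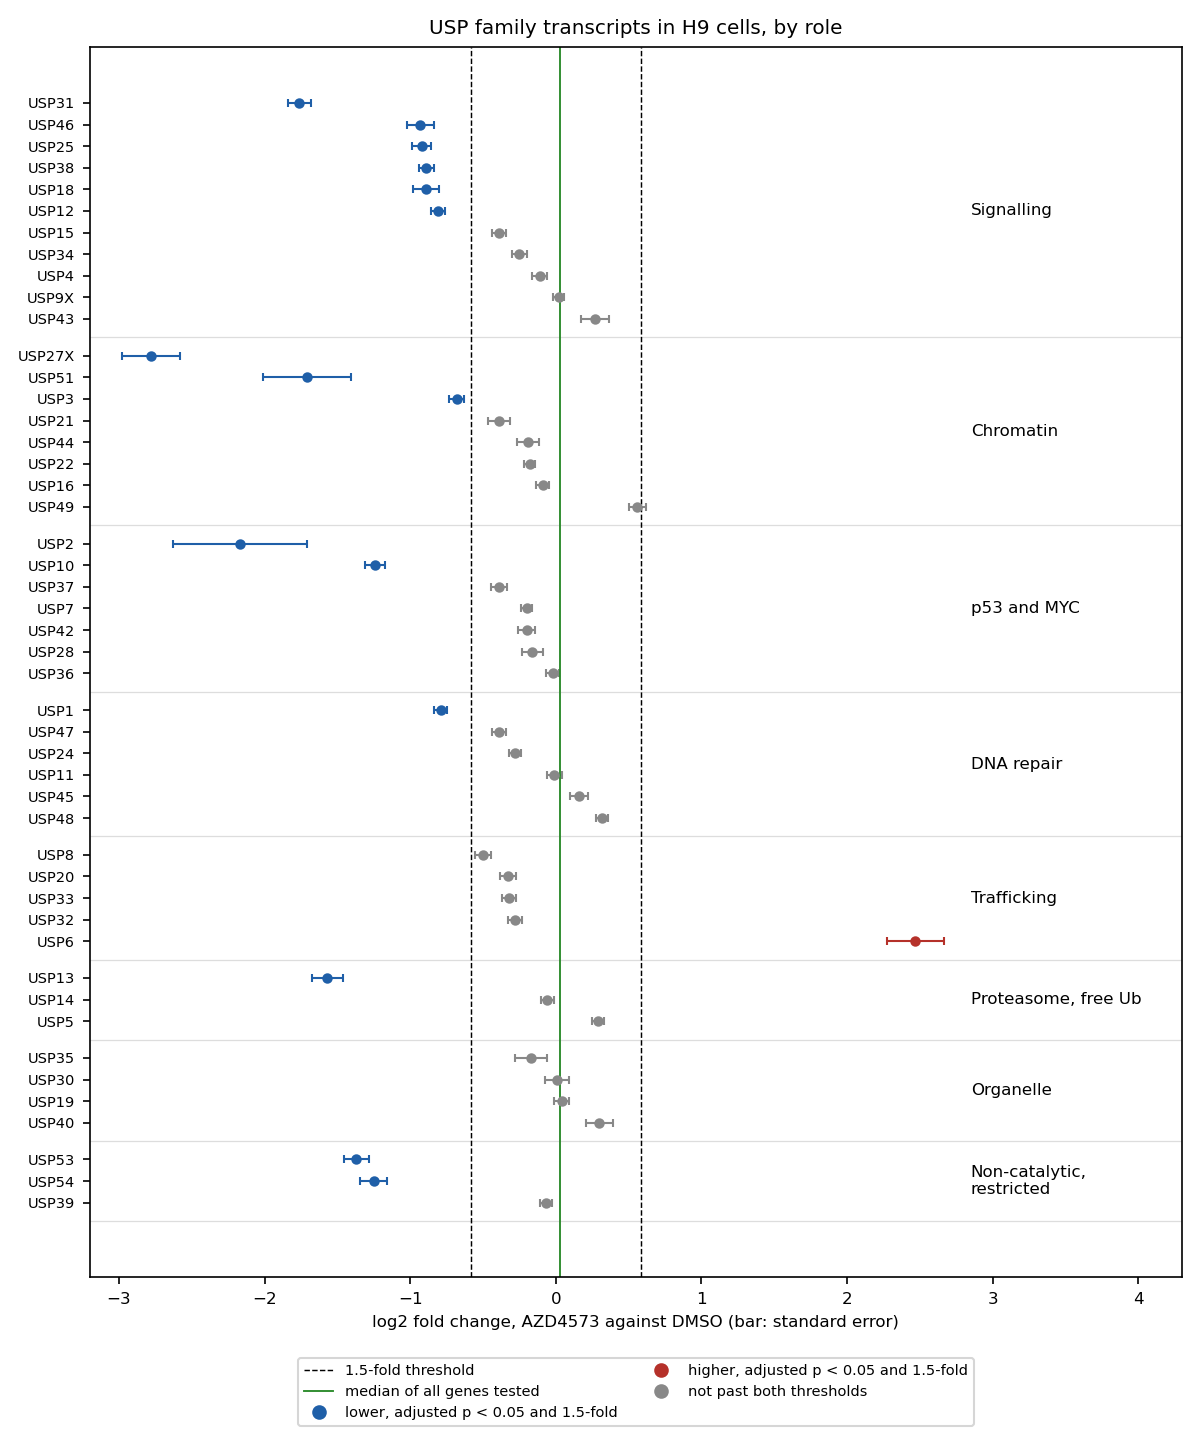
Log2 fold change (AZD4573 relative to DMSO, TMM scaling) of the 47 USP genes tested, grouped by role, with bars for the standard error and 3 libraries per group; the dashed lines mark 1.5-fold and the green line the median of all genes tested (0.03). Falls past both thresholds (blue) number 6 in signalling and 3 in chromatin, and USP6 (red, 2.47) is the only rise; under mitochondrial scaling all points move left and the small rises turn negative.

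The share of all counts that fell on the family was 0.326% ± 0.00584 (SD, n = 3) with DMSO and 0.258% ± 0.00564 (SD, n = 3) with AZD4573. By library it was 0.320%, 0.331% and 0.328% against 0.263%, 0.259% and 0.252%, without overlap. The leading 5 genes held 37.2% to 37.5% of USP counts with DMSO, and these were USP7, USP22, USP36, USP1 and USP10. With AZD4573 the leading 5 held 39.7% to 40.5%, and USP1 and USP10 had given way to USP5 and USP48.

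Compared per kilobase of the canonical transcript, the highest levels with DMSO were those of USP39 (56.6 ± 1.68 CPM per kb, SD, n = 3), USP22 (53.6 ± 0.182), USP7 (51.8 ± 0.473) and USP1 (50.8 ± 1.67). USP36 (45.8 ± 2.04), USP10 (43.9 ± 0.594) and USP5 (43.9 ± 0.344) followed. USP7 and USP1, and likewise USP36, USP10 and USP5, differed by less than their spread. With AZD4573 the order was USP39 (54.0 ± 0.253 CPM per kb), USP5 (53.6 ± 1.16), USP22 (47.3 ± 1.61), USP7 (45.1 ± 0.486) and USP36 (45.1 ± 1.47), while USP1 stood at 29.4 ± 1.13 and USP10 at 18.6 ± 2.29. USP5, the enzyme that takes apart free ubiquitin chains, thus came within the spread of USP39 at the head of the family.

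Some close relatives within the family differed in their response, among them USP22 and USP27X, and USP5 and USP13. The 300 bases around their RefSeq transcription starts (250 before and 50 after, GRCh38.p14, 5′ to 3′ on the gene's strand) are printed for these 4 genes because each pair holds a member that fell and an abundant relative that stayed under the fold threshold. Capitals mark the motifs searched, on both strands: the TATA box (TATAAA, reverse TTTATA), the CCAAT box (CCAAT, reverse ATTGG), the GC box (GGGCGG, reverse CCGCCC) and the E-box (CACGTG). Matches to different motifs do not overlap in these windows. They are chr17:21042962-21043261 (minus strand) for USP22, chrX:49879234-49879533 (plus) for USP27X, chr12:6851900-6852199 (plus) for USP5 and chr3:179652790-179653089 (plus) for USP13. The USP22 window lies inside the GENCODE span of that gene, since RefSeq places the start further downstream.
USP22: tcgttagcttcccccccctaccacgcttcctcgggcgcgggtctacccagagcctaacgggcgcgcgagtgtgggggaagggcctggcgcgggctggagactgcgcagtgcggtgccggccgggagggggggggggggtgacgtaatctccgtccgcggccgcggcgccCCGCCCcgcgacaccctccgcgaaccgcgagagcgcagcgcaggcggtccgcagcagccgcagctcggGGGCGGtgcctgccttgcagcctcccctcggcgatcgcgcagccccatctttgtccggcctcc
USP27X: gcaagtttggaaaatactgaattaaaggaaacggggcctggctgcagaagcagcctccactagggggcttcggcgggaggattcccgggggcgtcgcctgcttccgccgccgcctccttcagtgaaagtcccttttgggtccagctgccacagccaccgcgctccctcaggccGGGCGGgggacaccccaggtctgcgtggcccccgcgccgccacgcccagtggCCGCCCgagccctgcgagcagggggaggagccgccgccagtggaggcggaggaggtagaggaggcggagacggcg
USP5: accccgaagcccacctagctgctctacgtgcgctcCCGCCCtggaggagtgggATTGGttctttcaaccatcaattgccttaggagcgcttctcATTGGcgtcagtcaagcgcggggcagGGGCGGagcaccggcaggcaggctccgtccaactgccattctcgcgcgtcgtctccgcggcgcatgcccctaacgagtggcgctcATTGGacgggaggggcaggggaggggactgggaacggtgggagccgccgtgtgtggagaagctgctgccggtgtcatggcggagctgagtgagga
USP13: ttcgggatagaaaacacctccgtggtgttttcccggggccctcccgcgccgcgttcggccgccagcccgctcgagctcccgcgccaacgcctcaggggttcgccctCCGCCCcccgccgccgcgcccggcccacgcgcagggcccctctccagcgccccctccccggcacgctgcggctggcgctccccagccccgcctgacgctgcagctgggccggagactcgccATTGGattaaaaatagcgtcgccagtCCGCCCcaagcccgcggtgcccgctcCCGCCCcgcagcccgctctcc

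All 4 windows were rich in G and C (75.7% for USP22, 70.0% for USP27X, 65.7% for USP5 and 75.7% for USP13) and held no TATA box and no E-box. GC boxes numbered 2 in USP22, 2 in USP27X, 2 in USP5 and 3 in USP13. The CCAAT box was found 3 times in USP5 and 1 time in USP13, and in neither USP22 nor USP27X. RefSeq gave windows for 39 of the 51 members, 53 windows in all. A GC box was present in 71.7% of the USP windows, beside 45.0% of 35116 windows of all genes, a CCAAT box in 24.5% beside 34.6%, a TATA box in 5.66% beside 11.5% and an E-box in 7.55% beside 7.26%. These matches are descriptions of the letters and not sites of binding.

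Among the USPs of chromatin, 3 of 8 fell (37.5%, beside 23.7% of all genes tested), none rose, and the median change was -0.29. USP22, USP27X and USP51 are the alternative catalytic subunits that remove ubiquitin from histone H2B, with ATXN7L3 and ENY2 as shared partners, and USP22 is the one built into the SAGA coactivator complex. USP27X, a gene of 1 exon at chrX:49879484-49882558, was measured at 6.12, 5.0 and 6.1 CPM with DMSO and at 1.2, 0.754 and 0.59 CPM with AZD4573. The groups were far apart, and the change of -2.78 ± 0.202 (SE, edgeR QL, BH-adjusted p = 3.1e-08) was the largest fall of the family, at percentile 0.979 of all genes tested. USP51 (chrX:55484616-55489848) was scarce throughout, with 0.79, 1.07 and 0.977 CPM against 0.393, 0.228 and 0.246 CPM. It fell by 1.71 ± 0.303 (SE, edgeR QL, BH-adjusted p = 1.7e-04), again without overlap.

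USP22 itself (chr17:20999596-21043760) held 277, 279 and 278 CPM with DMSO and 249, 251 and 236 CPM with AZD4573. These groups did not overlap either, but the change was only -0.18 ± 0.0398 (SE, edgeR QL, BH-adjusted p = 0.00101), below the fold threshold. Since library scaling cancels in a ratio within a library, the relatives were also compared in this way. USP27X gave 2.21, 1.79 and 2.19 counts per 100 counts of USP22 with DMSO and 0.48, 0.301 and 0.25 with AZD4573, a ratio 6.21-fold lower. USP51 gave 0.285, 0.382 and 0.352 per 100 against 0.158, 0.091 and 0.104, a ratio 2.95-fold lower. Of the shared partners, ATXN7L3 changed by -0.57 (142 to 95.7 CPM), just under the fold threshold, and ENY2 by -0.10 (46.6 to 43.4 CPM; edgeR QL, BH-adjusted p = 0.0855).

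USP3, which acts on ubiquitinated H2A, fell by 0.68 ± 0.0524 (SE; 39.4, 41.4 and 40.3 CPM against 24.7, 25.1 and 25.8 CPM). It was the member just inside the fold threshold. The H2A enzymes USP21 (-0.39) and USP16 (-0.09) and the H2B enzyme USP44 (-0.19) stayed under that threshold, USP16 also failing the adjusted one and USP44 failing it with a replicate block (edgeR QL, BH-adjusted p = 0.0514) and DESeq2 (0.0664). USP49, another H2B deubiquitinase, was the one chromatin member with higher values, at 34.2, 34.2 and 37.3 CPM with DMSO and 48.6, 53.8 and 53.1 CPM with AZD4573. Its change of 0.56 ± 0.0582 (SE, edgeR QL, BH-adjusted p = 1.2e-06) lay just outside the fold threshold, and it turned to -0.18 under mitochondrial scaling. A gene model on the same strand (ENSG00000288721), which shares 5470 of the 10935 exon bases of USP49, went from 1.07 to 2.35 CPM, so that reads of the pair may be divided between them.

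**Figure D2:**
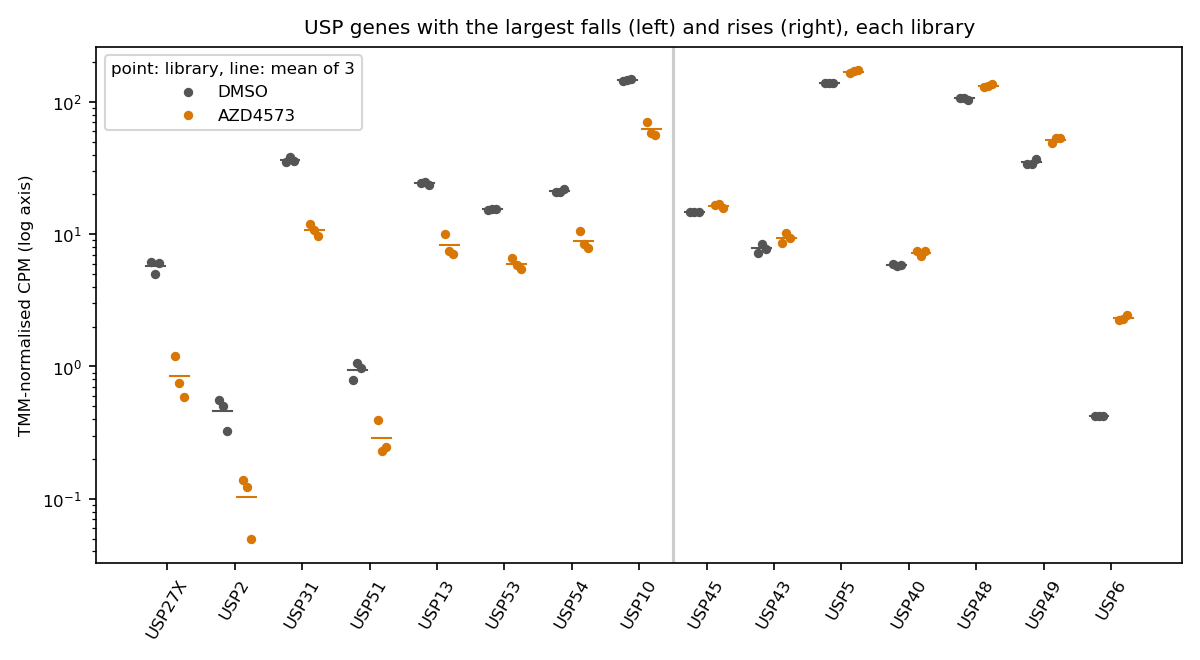
TMM-normalised CPM (log axis) in each library for the 8 USP genes with the largest falls and the 7 that were higher with an adjusted p under 0.05; points are libraries and lines are means of 3. No gene shown has overlapping groups, USP27X falls from a mean of 5.74 to 0.848 CPM, and USP6 is level at 0.421 to 0.423 CPM with DMSO and 2.26 to 2.47 CPM with AZD4573.

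Signalling, the largest group, held the most falls, 6 of 11 tested (54.5%, beside 23.7% of all genes tested). It had a median of -0.81 and no rise. USP31, a large USP linked to NF-κB signalling (chr16:23061406-23149452), was at 34.9, 38.5 and 35.6 CPM with DMSO and at 11.9, 10.7 and 9.63 CPM with AZD4573. It fell by 1.76 ± 0.0773 (SE, edgeR QL, BH-adjusted p = 3.2e-10), with the smallest adjusted p of the family. USP18, which removes the ubiquitin-like protein ISG15 and restrains the interferon receptor (chr22:18150118-18177397), was at 10.9, 10.2 and 9.98 CPM against 5.93, 5.37 and 5.52 CPM. It fell by 0.89 ± 0.0877 (SE, edgeR QL, BH-adjusted p = 6.7e-07), and the groups were well separated. USP41, a near-copy of part of USP18, gave at most 1 count in any library, so that little if any of this signal was assigned to it.

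USP12 and USP46 are close relatives that need the activator UAF1 (gene WDR48), and both fell, with changes of -0.81 and -0.93. USP46 gave 17.6, 17.5 and 17.3 counts per 100 counts of USP12 with DMSO and 16.3, 14.7 and 17.3 with AZD4573, so that the ratio hardly moved. USP25, active in innate immune signalling, fell by 0.92, and USP38, known for its action on TBK1, fell by 0.89. Neither USP28 nor USP35, their relatives, passed the adjusted threshold. The USP25 to USP28 ratio was 1.7-fold lower with AZD4573 and the USP38 to USP35 ratio 1.65-fold lower, both without overlap.

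The remaining signalling members moved little. USP15 (-0.39) and USP34 (-0.25), which act in TGF-β and Wnt signalling, were lower under the fold threshold, and USP4 (-0.11), the nearest relative of USP15, did not pass the adjusted threshold. USP9X, a large X-linked enzyme with MCL-1 and SMAD4 among its substrates (chrX:41085445-41236579), was at 108, 109 and 109 CPM against 111, 110 and 110 CPM. All AZD4573 values were thus above all DMSO values, yet the change was 0.02 ± 0.0396 (SE, edgeR QL, BH-adjusted p = 0.724). USP43 was at 7.24, 8.42 and 7.75 CPM against 8.53, 10.2 and 9.44 CPM, a change of 0.27 ± 0.0951 (SE, edgeR QL, BH-adjusted p = 0.0209), with the groups touching closely and a value of -0.47 under mitochondrial scaling. Its adjusted p (edgeR QL, BH) was 0.141 with library size only and missed 0.05 in 4 of 6 fits with 1 library left out.

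Of the USPs that act on p53, its ligase MDM2 or MYC, 2 of 7 fell (28.6%, beside 23.7% of all genes tested). None rose, and the median was -0.20. USP10, which deubiquitinates p53 and binds G3BP1 (chr16:84699986-84779922), was at 144, 146 and 148 CPM with DMSO and 70.7, 58.5 and 56.6 CPM with AZD4573. It fell by 1.24 ± 0.069 (SE, edgeR QL, BH-adjusted p = 2.4e-09), the most among members above 100 CPM with DMSO. USP2, an enzyme for MDM2 and cyclin D1 (chr11:119355215-119381711), fell by 2.17 ± 0.46 (SE, edgeR QL, BH-adjusted p = 7.5e-04) from a low level of 0.561, 0.505 and 0.326 CPM to 0.138, 0.123 and 0.0492 CPM. These are 44, 37 and 24 counts against 7, 7 and 3, the last at the limit that a count of 0 allows. USP2-AS1, on the opposite strand and sharing 1142 of its 4523 exon bases, was at 0.42 CPM with DMSO and 0.683 CPM with AZD4573.

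USP7, the deubiquitinase of MDM2 and p53 and the gene with most USP counts with DMSO (chr16:8892097-8975328), was at 299, 304 and 303 CPM against 261, 266 and 261 CPM. The groups were separate, with a change of -0.20 ± 0.037 (SE, edgeR QL, BH-adjusted p = 2.5e-04). USP36, a nucleolar enzyme that acts on MYC (chr17:78787381-78841441), was at 255, 278 and 273 CPM against 260, 275 and 259 CPM. Here the groups overlapped and the change was -0.02 ± 0.0446 (SE, edgeR QL, BH-adjusted p = 0.649). USP37 (-0.39) and USP42 (-0.20) were lower under the fold threshold, and USP28 (-0.16), which counters FBXW7 on MYC, did not pass the adjusted one.

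In DNA repair 1 of 6 fell (16.7%, beside 23.7% of all genes tested), none rose, and the median was -0.15. The one was USP1, which acts with UAF1 on FANCD2 and PCNA (chr1:62436297-62451804), at 187, 186 and 176 CPM with DMSO and 102, 110 and 105 CPM with AZD4573. It fell by 0.79 ± 0.0451 (SE, edgeR QL, BH-adjusted p = 2.9e-09) and left the leading 5 genes of the family. USP47 (-0.39), which acts on DNA polymerase beta, and USP24 (-0.28) were lower under the fold threshold. USP11 (-0.01), a partner of BRCA2, had overlapping groups.

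A pair of repair members had higher values. USP48, an enzyme for H2A ubiquitinated by BRCA1, was at 108, 107 and 104 CPM against 130, 133 and 136 CPM, a change of 0.32 ± 0.0418 (SE, edgeR QL, BH-adjusted p = 1.2e-05). USP45, which acts on the nuclease subunit ERCC1, was at 14.8, 14.8 and 14.6 CPM against 16.5, 16.8 and 15.9 CPM, a change of 0.16 ± 0.0629 (SE, edgeR QL, BH-adjusted p = 0.0366). Both were under the fold threshold without overlap of groups, and under mitochondrial scaling they read -0.42 and -0.58. The adjusted p of USP45 was 0.0585 with a replicate block, 0.0556 with DESeq2, 0.456 with library size only and 0.269 without a filter, and missed 0.05 in 5 of 6 fits with 1 library left out.

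The enzymes of free ubiquitin and the proteasome moved apart. USP13 (chr3:179653032-179804366) fell by 1.57 ± 0.107 (SE, edgeR QL, BH-adjusted p = 1.6e-08), from 24.4, 24.6 and 23.7 CPM to 10.1, 7.51 and 7.04 CPM. USP5, its close relative (chr12:6852148-6866632), was instead higher under the fold threshold, at 139, 138 and 140 CPM against 165, 170 and 173 CPM, a change of 0.29 ± 0.0395 (SE, edgeR QL, BH-adjusted p = 1.8e-05) that read -0.45 under mitochondrial scaling. Within libraries, USP13 gave 17.6, 17.9 and 17.0 counts per 100 of USP5 with DMSO and 6.12, 4.41 and 4.08 with AZD4573, a ratio 3.64-fold lower whatever the scaling. USP14, the deubiquitinase of the proteasome itself, was at 84.2, 83.8 and 79.6 CPM against 79.4, 80.6 and 78.1 CPM. Its groups overlapped, with a change of -0.06 ± 0.0445 (SE, edgeR QL, BH-adjusted p = 0.26).

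The trafficking group held the only rise. USP6, a hominoid gene (chr17:5116032-5175034) whose protein joins a TBC domain to a USP domain related to that of USP32, was at 0.421, 0.423 and 0.421 CPM with DMSO and 2.26, 2.3 and 2.47 CPM with AZD4573. It rose by 2.47 ± 0.193 (SE, edgeR QL, BH-adjusted p = 6.3e-08), or 5.54-fold, from 33, 31 and 31 counts to 115, 131 and 151. The USP6 to USP32 ratio was 6.74-fold higher, at 0.559, 0.56 and 0.559 per 100 against 3.43, 3.67 and 4.25.

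USP6 shares long stretches with TBC1D3 genes and with USP32 and its pseudogenes, so that its counts depend on how reads were divided among these copies. TBC1D3L had 598, 725 and 710 counts with DMSO and 1185, 1484 and 1364 with AZD4573, and the pseudogene USP32P3 had 75, 99 and 98 against 152, 168 and 191. Other copies went the other way. USP32P2 had 1072, 1145 and 956 against 805, 645 and 918. TBC1D3B had 35, 50 and 34 against 18, 20 and 24, and USP32P1 had 6, 16 and 25 against 2, 2 and 7. The part of these copies in the USP6 result was not tested.

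The other 4 trafficking members were lower under the fold threshold, with USP8 (-0.50), which acts with the adaptor STAM on endosomal receptors, just outside it. USP20 (-0.33) and USP33 (-0.32), relatives that act on receptor recycling, moved together, and their ratio overlapped between groups. USP32, a Golgi and endosome enzyme, changed by -0.28.

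None of the 4 organelle members fell or rose (beside 23.7% and 22.7% of all genes tested), and their median was 0.03. USP30, the deubiquitinase of the mitochondrial outer membrane (0.01), USP19, anchored in the endoplasmic reticulum (0.04), and USP35 (-0.17) had overlapping groups. USP40 was at 5.99, 5.79 and 5.89 CPM against 7.45, 6.86 and 7.47 CPM, without overlap, a change of 0.30 ± 0.09 (SE, edgeR QL, BH-adjusted p = 0.00814) that read -0.44 under mitochondrial scaling and had an adjusted p of 0.0612 with library size only.

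USP39, USP53 and USP54 have long been classed as lacking protease activity, and USP39 is a splicing factor of the tri-snRNP. Of these 3 genes, 2 fell (66.7%, beside 23.7% of all genes tested). USP53 (chr4:119212587-119295518), a protein of tight junctions, fell by 1.37 ± 0.0852 (SE, edgeR QL, BH-adjusted p = 6.4e-09), from 15.3, 15.6 and 15.4 CPM to 6.6, 5.86 and 5.44 CPM. USP54 (chr10:73497538-73626117) fell by 1.25 ± 0.0931 (SE, edgeR QL, BH-adjusted p = 3.8e-08), from 20.8, 21.0 and 22.0 CPM to 10.5, 8.49 and 7.86 CPM. These relatives fell by a like amount, the USP53 to USP54 ratio changing by -0.12 on the log2 scale. USP39 (chr2:85602856-85649283) was at 128, 122 and 121 CPM against 117, 118 and 118 CPM. Its groups were separate by a narrow gap and the change was -0.07 ± 0.0414 (SE, edgeR QL, BH-adjusted p = 0.156).

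The 4 members that failed the filter on low counts are known for expression in testis or for the lack of a catalytic triad, or are partial copies. USP26, a testis gene, had 0, 0 and 0 counts with DMSO and 2, 0 and 1 with AZD4573. USP29, likewise, had 0 counts in all libraries. USP41 had 0, 1 and 0 against 0, 0 and 1, and USP50 had 7, 14 and 3 against 4, 8 and 16. No difference was detectable at this depth.

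In each of the 8 genes with the largest falls, AZD4573 replicate 1 had the highest value of the 3 treated libraries. This library also had the lowest total (52101868 counts) and the lowest mitochondrial share of its group (4.67%). Without it, 15 USP genes fell, as with all libraries, beside 23.8% of all genes tested. The USP median was then -0.31, beside 0.02 over all genes. A further gene, USP49, then passed the fold threshold, as it also did without DMSO replicate 3, so that 2 USP genes rose. Of all genes, 22.6% rose without AZD4573 replicate 1 and 22.5% without DMSO replicate 3.

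Over 17 pairs of relatives, the ratio of counts within a library was lower for 12, higher for 2 and overlapping for 3. Which gene was divided by the other was set by hand, so the split between lower and higher is not a result. The 12 include USP46 to USP12, whose groups met at 17.3 after rounding. Among single genes tested, the groups were apart in 38.7% (lower) and 39.0% (higher). With 3 libraries against 3, the two-sided exact permutation test cannot give a p below 0.1 (BH-adjusted 0.121 over the 17 pairs), so that no pair could reach 0.05. Besides those above, USP44 to USP49 was 1.68-fold lower, USP2 to USP21 3.68-fold lower and USP36 to USP42 1.13-fold higher. USP33 to USP20, USP11 to USP4 and USP24 to USP34 overlapped, with log2 changes of 0.01, 0.10 and -0.03.

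**Figure D3:**
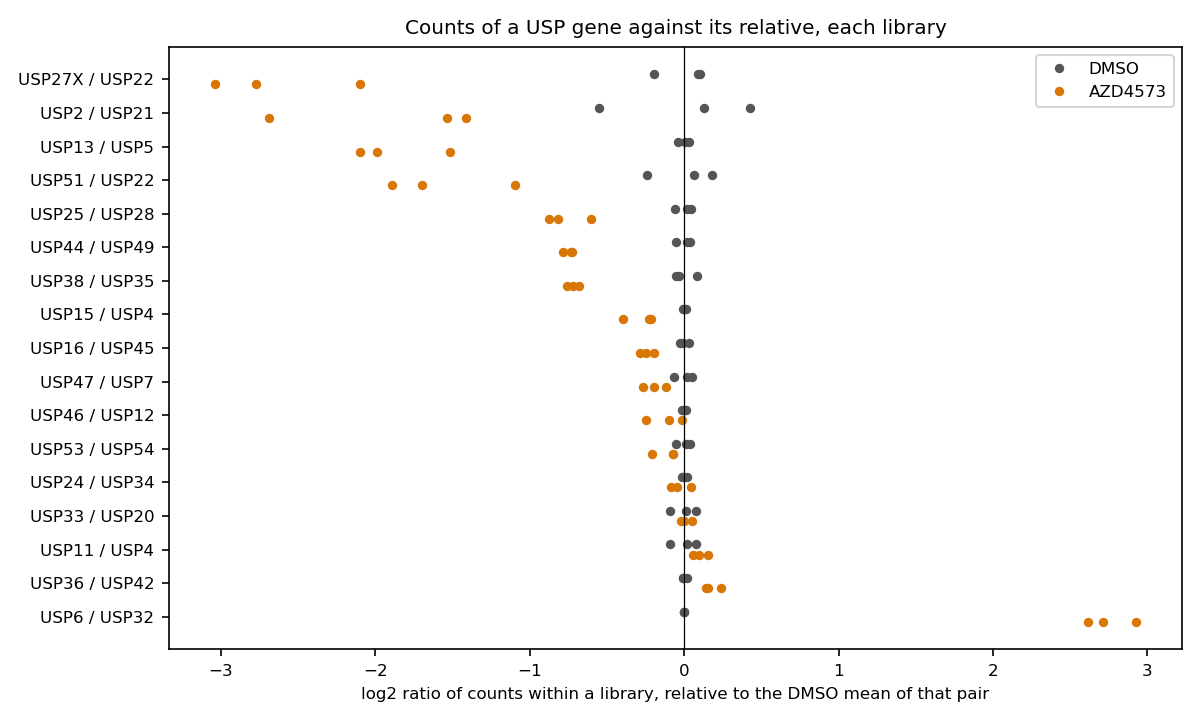
Log2 ratio of counts of 1 USP gene to a relative within each library, set to the DMSO mean of the pair, for 17 pairs; points are libraries (grey DMSO, orange AZD4573). USP27X to USP22 is 6.21-fold lower, USP13 to USP5 3.64-fold lower and USP6 to USP32 6.74-fold higher, and these ratios do not depend on library scaling.

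Gene structure was examined as a feature that the choice of members did not use. The 15 genes that fell had a median span of 79.9 kb (3.08 to 151 kb) and the other 32 a median of 64.4 kb (6.27 to 284 kb). Across the 47 genes, the change had a Spearman rho of -0.02 with gene span, beside -0.03 over 13423 protein-coding genes. Genes of the same libraries share depth and scaling, and these values are descriptions. By span, 6 of 16 USP genes under 50 kb fell (37.5%, beside 27.5% of protein-coding genes of that span), 5 of 18 from 50 to 100 kb (27.8% beside 30.6%) and 4 of 13 over 100 kb (30.8% beside 22.7%). Thus the shortest, USP27X, fell most, whereas the longest, USP34 (chr2:61187463-61471087), moved by -0.25.

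The genes that fell had fewer exons in the canonical transcript, a median of 13 against 21.5, and lower levels with DMSO, a median of 24.3 against 58.1 CPM. Spearman's rho of the change was 0.31 with the number of exons (0.08 over protein-coding genes). With the mean log2 level over both groups it was 0.28 (-0.08 over protein-coding genes). That level includes the AZD4573 libraries, so that a fall itself lowers it, and this rho does not describe the level with DMSO alone. Of protein-coding genes with 1 exon, the class of USP27X, 138 of 332 fell (41.6%), beside 26.8% of those with more.

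**Figure D4:**
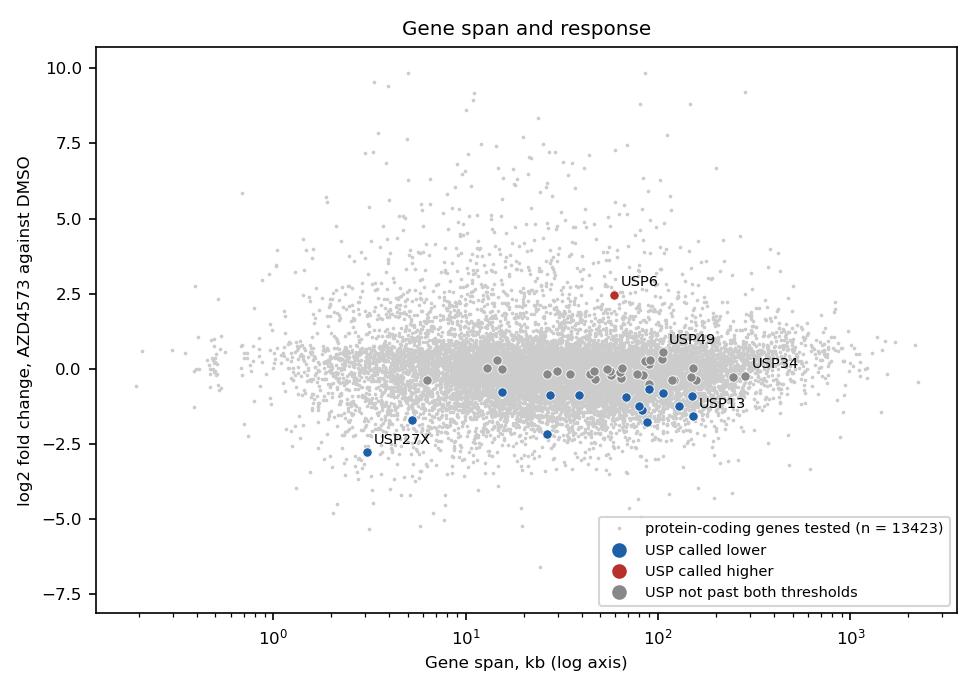
Log2 fold change (AZD4573 relative to DMSO) against gene span in kb (log axis) for 13423 protein-coding genes tested (small points) and the 47 USP genes (large points, blue fallen, red risen, grey neither). USP falls are spread from 3.08 kb (USP27X) to 151 kb (USP13) with no trend along the axis (rho -0.02).

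Exon bases are shared with another annotated gene by 26 of the 51 members, and reads were counted without regard to strand, so that such genes cannot be fully told apart. For USP34 the opposite-strand gene AHSA2P, sharing 3263 of 18443 exon bases, went from 39.4 to 82.8 CPM while USP34 was lower. VIL1, sharing 3045 of 9280 exon bases of USP37, went from 7.41 to 12.4 CPM. Among the genes that fell most, PEX5L, which shares 37 bases with USP13, went from 0.524 to 4.54 CPM, and PPP3CB-AS1, which overlaps USP54, went from 5.35 to 3.93 CPM. USP13 shares more, 2462 of its 15296 exon bases, with ENSG00000288698 on the same strand. That gene model went from 0.0679 to 0.294 CPM and had at most 24 counts. ENSG00000260566, which shares 2768 of 12199 bases with USP31, was at most at 9 counts. USP2-AS1 was above USP2 with AZD4573, at 0.683 beside 0.103 CPM.

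The other deubiquitinase families, 37 genes tested of 40, held 8 genes that fell (21.6%, beside 23.7% of all genes tested) and 5 that rose (13.5%, beside 22.7%), with a median of -0.03 and a range from -4.48 to 1.16. Under mitochondrial scaling 23 fell and none rose, where 53.4% of all genes fell and 10.0% rose, and the rises numbered 3 with library size only, without DMSO replicate 2 and without AZD4573 replicate 3. Whether these families differ from the USPs was not tested. OTUD1, a gene of 1 exon in the OTU family, fell most, by 4.48 (4.51 to 0.198 CPM), followed by the JAMM metalloprotease STAMBPL1 (-2.35), the OTU enzyme ZRANB1 (-1.83) and OTULIN (-1.71), which cuts linear ubiquitin chains. OTUD7A (1.16) and PAN2 (1.12), a deadenylase with an inactive USP fold, rose most. OTUD7A was scarce, at 0.245 CPM with DMSO and 0.548 CPM with AZD4573, whereas PAN2 went from 62.2 to 136 CPM. The other rises were MINDY1 (0.85) and the translation initiation subunits EIF3F (0.61) and EIF3H (0.59). The tumour suppressor CYLD, a USP by fold, was higher under the fold threshold with a change of 0.38, from 306 to 398 CPM.

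Of 26 partners of USPs and genes of ubiquitin itself, 9 fell (34.6%, beside 23.7% of all genes tested) and 3 rose (11.5%, beside 22.7%), with a median of -0.25. Under mitochondrial scaling 16 fell and none rose, beside 53.4% and 10.0% of all genes. WDR48, whose product UAF1 activates USP1, USP12 and USP46, was at 52.8, 50.8 and 54.6 CPM with DMSO and 13.6, 9.6 and 10.0 CPM with AZD4573. It fell by 2.26 ± 0.101 (SE, edgeR QL, BH-adjusted p = 3.7e-10), beside changes of -0.79, -0.81 and -0.93 for the 3 enzymes, and a further cofactor of USP12 and USP46, WDR20, fell by 0.65. STAM, the endosomal partner of USP8, fell by 1.88, and MDM2, a substrate of USP7 and USP2, fell by 1.17.

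Among proteins of the SAGA module, ATXN7L2 fell by 2.55 and ATXN7L1 rose by 1.27. The other rises were UBA7 (0.70), the activating enzyme of ISG15, and RPS27A (0.64, from 530 to 828 CPM), which encodes ubiquitin joined to a ribosomal protein. UBB, a gene of ubiquitin itself, went from 19.0 to 22.9 CPM (0.27), under the fold threshold.

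**Figure D5:**
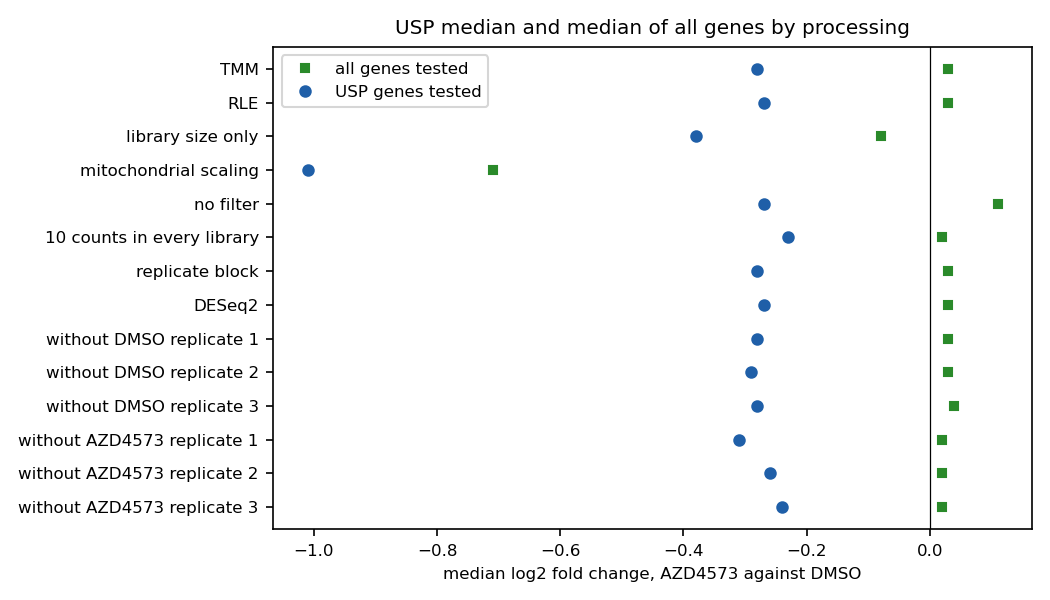
Median log2 fold change of the USP genes tested (blue circles) and of all genes tested (green squares) under each processing, with 1 line per scaling, filter, tool or left-out library. The USP median lies below that of all genes in every line, from -0.28 beside 0.03 with TMM to -1.01 beside -0.71 with mitochondrial scaling. A change of scaling moves all genes alike, so lines that differ only in scaling do not test this gap anew.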

How the data were processed

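The authors deposited expected counts per gene in whole numbers, without normalization, for 6 H9 libraries. According to the submitters' notes and the supplemental methods, reads were trimmed with cutadapt 2.3, aligned to GRCh38 with STAR 2.7.8a and quantified with RSEM 1.3.3, whose defaults ignore strand. The labels describe poly(A) selection and the supplemental methods rRNA depletion. Besides 61541 genes the table has 5 reporter entries with 0 counts, which were left out.

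Counts were rounded and analysed in R 4.3.3 with edgeR 4.0.16: filterByExpr (minimum count 10), TMM, the quasi-likelihood test on treatment alone and Benjamini-Hochberg adjustment over 17678 genes. A call needed an adjusted p under 0.05 and at least 1.5-fold. The fit was tested on simulated data with few changed genes, balanced between lower and higher. Scaling under changes as widespread as in these libraries was not tested in this way. No library is a copy of another, since chi-square divided by its degrees of freedom was 5.54 to 20.9 within groups. Alternatives were RLE, library size only, scaling to 13 mitochondrial mRNAs, other filters, other fold thresholds, DESeq2 1.42.0, a replicate block and each library left out.

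Members, roles and lists were chosen with earlier results of these data known, so no list was tested as a set. All members are named. Values per library are given for the 8 largest falls, for the rises (up to 8) with an adjusted p under 0.05 and for USP1, USP7, USP9X, USP10, USP14, USP18, USP22, USP36 and USP39. From the other lists, genes with an absolute log2 change of at least 1 are named, up to 4 in each direction, with WDR48, WDR20, ENY2, ATXN7L3 and UBB. Another gene named by this rule is not reported here. CYLD and the remaining rises of these lists, with USP32P3 and the other near-copies and overlapping neighbours, was named outside this rule, with values known. Positions, spans and exons came from GENCODE release 44, which matched 61369 genes and all 51 members, with the Ensembl canonical transcript for exon numbers and lengths. Promoter windows came from RefSeq (GRCh38.p14).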

Additional observations from a re-analysis of the deposited data

How the results depend on the processing

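All 16 USP genes that fell or rose kept direction and call under each other scaling, filter, tool, block or left-out library in which they were tested. Without mitochondrial scaling, 40 of the 47 genes tested kept direction and call under all of these. On the adjusted p alone 36 of 47 stayed on 1 side of 0.05: USP40, USP43, USP44 and USP45 missed it under 1, 6, 7 and 9 of these 12 alternatives, and 7 genes passed it with library size only. Mitochondrial scaling moved most counts: 40 USP genes, 23 other deubiquitinases and 16 partners were lower, none of the other deubiquitinases or partners (0 and 0) was higher, and the USP median was -1.01. Of all genes, 53.4% were then lower and 10.0% higher. With library size only, that median was -0.38 and 3 other deubiquitinases were higher (19.5% of all genes), as were 3 without a filter (14.5%). With 10 counts in every library the median was -0.23 and 2 USP genes were higher (21.3% of all genes). At a fold of at least 2, 8 USP genes, 5 other deubiquitinases and 5 partners were lower, and 2 other deubiquitinases and 1 partner higher. The share of all genes past this fold is not given here, so these counts cannot be set against it. Without a fold threshold, 29 USP genes and 17 other deubiquitinases were lower, and 7 USP genes, 14 other deubiquitinases and 10 partners higher. Of all genes tested, 37.4% were then lower and 37.3% higher.

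Leaving out 1 library gave 15 to 15 USP genes lower and 1 to 2 higher (2 without DMSO replicate 3 or AZD4573 replicate 1), 8 to 9 other deubiquitinases lower and 3 to 5 higher (3 without DMSO replicate 2 or AZD4573 replicate 3), 9 to 10 partners lower and 3 to 3 higher, and a USP median of -0.31 to -0.24. With 1 library left out, 22.9% to 23.8% of all genes tested were lower and 21.2% to 22.6% higher. A replicate block gave 15 USP genes lower and 1 higher (23.5% and 22.2% of all genes). It changed no call of both thresholds, although USP44 and USP45 then missed the adjusted p. Same-numbered libraries did not deviate together over all genes tested (correlations -0.00724, 0.0707 and -0.0203). This check cannot exclude a shared culture or batch that acts on few genes.

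Apart from mitochondrial scaling, only genes with an absolute change of at most 0.04 reversed. USP36 read 0.014 and USP11 0.025 with 10 counts in every library. With library size only, USP30 read -0.091, USP9X -0.088 and USP19 -0.061. Without a filter USP30 read -0.028 and USP9X -0.026. With 1 library left out, USP11 ranged from -0.071 to 0.013 (above 0 without DMSO replicate 2 and without AZD4573 replicate 1), USP30 from -0.035 to 0.045 (below 0 without DMSO replicate 1 and without AZD4573 replicate 1) and USP19 from -0.019 to 0.066 (below 0 without DMSO replicate 1). Mitochondrial scaling gave -0.72 for USP30, -0.72 for USP9X, -0.69 for USP19, -0.58 for USP45, -0.47 for USP43, -0.45 for USP5, -0.44 for USP40, -0.42 for USP48 and -0.18 for USP49. The cause of these shifts was not tested. USP2, USP51 and USP6 rest on few counts, which limits their precision.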
